A study of Mus musculus with 2 samples.

Results

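The 9 genes described here belong to the interferon system: the interferon genes Ifna15 and Ifnl2, the transcription factor gene Irf7, and the effector genes Ifit1, Ifit2, Ifit3, Ifitm3, Oas3 and Apol9a. They are 9 of 22180 genes on the array and were chosen by name after the differences between these same 2 arrays were known. Each was read from 1 feature (a set of probes) whose annotation names that gene alone. The series measured mouse alveolar macrophages, which live in the air spaces of the lung and were sorted by flow cytometry, on 2 Affymetrix arrays. One array is labelled Lysm-Cre Ssu72fl/fl and the control array Lysm-Cre, so both carry Lysm-Cre. Lysm-Cre places Cre recombinase under the lysozyme 2 gene, which is active in macrophages, monocytes and neutrophils. Ssu72fl/fl denotes 2 copies of Ssu72 flanked by sites at which Cre cuts. Ssu72 encodes a phosphatase of the RNA polymerase II tail. Mice of both genotypes were 8 to 10 weeks old and kept free of specific pathogens, with no infection or stimulus named in the labels. The labels do not say how many mice supplied each array. Because each genotype had a single array, nothing could be tested between genotypes, and every value describes these arrays only.

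Interferons are secreted proteins that alert cells to viruses. Type I interferons, such as the alpha subtypes and beta, signal through Ifnar1 and Ifnar2, and type III interferons, the lambda genes, signal through Ifnlr1 and Il10rb. Both switch on a broad set of antiviral genes together, through interferon-stimulated response elements in their promoters. Alveolar macrophages are known as a source of type I interferon in the lung during respiratory virus infection.

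Ssu72 itself read 4.998 on the array labelled Ssu72fl/fl and 4.86 on the control array, in deposited log2 values. The difference of 0.14 was no larger than the spread at its level, also 0.14. That spread is the robust SD of differences among genes of similar signal, so it stands for scatter between genes and not between animals. Where the Ssu72 probes lie relative to the deletable part was not known, so this reading did not check the label. All 11 alveolar macrophage markers read were above the floor of 4.65 on both arrays. Of these 11, 10 were lower on the array labelled Ssu72fl/fl, with a median of -0.30, where 51.9% of all compared genes were lower. Marco (-0.51), Itgax (-0.49) and Pparg (-0.39) were lowest. Level-adjusted, 6 were lower and 5 higher (median -0.0085). Chil3 read 9.30 on the array labelled Ssu72fl/fl and 9.42 on the control array, a direction that turned when level-adjusted (0.26). All 6 general macrophage markers were lower (median -0.49, and -0.19 level-adjusted). The floor is the 50th percentile of all values, below which a value serves only as a bound.

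Ifit3, Ifna15, Ifnl2, Apol9a and Oas3 were higher on the array labelled Ssu72fl/fl by more than the spread at their level, while Irf7 and Ifit1 lay within it and Ifitm3 was lower by more than it. In material of many cells, fewer or more cells of a type and less or more RNA per cell cannot be told apart. Of the interferons, Ifna15, a type I gene of the alpha group, read 6.38 on the array labelled Ssu72fl/fl and 5.66 on the control array (0.72, or 1.65-fold, spread 0.26). Ifnl2, a type III gene, read 7.66 on the array labelled Ssu72fl/fl and 6.97 on the control array (0.69, or 1.62-fold, spread 0.33). Irf7, the transcription factor that drives interferon alpha genes, read 4.80 on the array labelled Ssu72fl/fl and 4.79 on the control array (0.0098, spread 0.12). Both interferon genes thus stood apart between the arrays, and Irf7 did not. Irf7 lay only 0.14 above the floor on the array labelled Ssu72fl/fl and 0.13 above it on the control array, so its small difference says little.

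Of the 3 IFIT members, only Ifit3 and Ifit1 could be compared, and their differences were unlike. Ifit1 lay only 0.24 above the floor on the array labelled Ssu72fl/fl and 0.28 above it on the control array. Ifit3, whose human counterpart binds IFIT1 and strengthens its hold on viral RNA, read 7.36 on the array labelled Ssu72fl/fl and 6.47 on the control array (0.89, or 1.86-fold, spread 0.33). Ifit1, whose protein binds RNA with a cap that lacks a methyl group found on host messages, read 4.89 on the array labelled Ssu72fl/fl and 4.93 on the control array (-0.040, spread 0.13). Ifit2, which limits some viruses in mice, read 4.49 on the array labelled Ssu72fl/fl and 4.46 on the control array, both below the floor, and was not compared. Ifit3 had the highest difference of the 9 genes.

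The other effectors went both ways. Apol9a, an interferon-induced gene of the apolipoprotein L family, read 6.65 on the array labelled Ssu72fl/fl and 6.13 on the control array (0.53, or 1.44-fold, spread 0.33). Oas3, which makes the short oligoadenylates that activate RNase L, read 5.0 on the array labelled Ssu72fl/fl and 4.68 on the control array (0.32, spread 0.13). Its control value lay only 0.032 above the floor. Ifitm3, a membrane protein gene that hinders viral fusion in endosomes, read 5.76 on the array labelled Ssu72fl/fl and 6.27 on the control array (-0.51, or 0.704-fold, spread 0.26), so it was the member furthest below its control value.

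**Figure D1:**
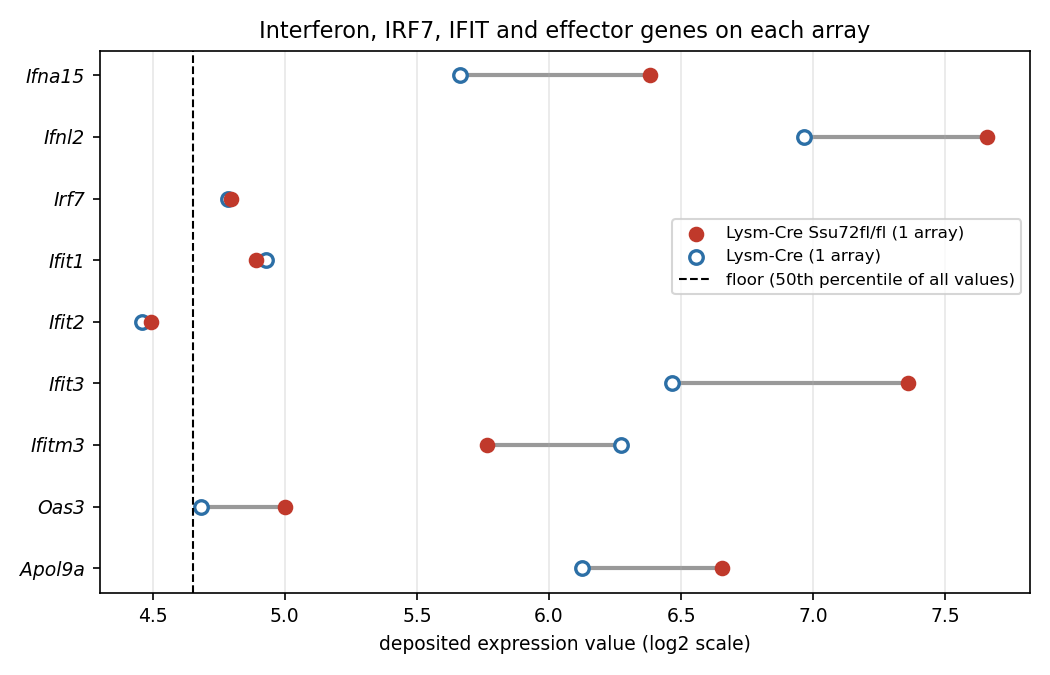
Deposited expression values (log2 scale, x axis) of the 9 genes (y axis), with a filled red point for the array labelled Lysm-Cre Ssu72fl/fl, an open blue point for the Lysm-Cre control array and a dashed line at the floor of 4.65. Ifit3 (7.36 and 6.47), Ifnl2, Ifna15 and Apol9a lie to the right on the array labelled Ssu72fl/fl, Ifitm3 lies to the left, and Ifit2 is below the floor on both arrays.

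Of the 8 members compared, 6 were higher and 2 lower on the array labelled Ssu72fl/fl, where 48.1% of the 13015 compared genes were higher and 51.9% lower. The member median was 0.42, beside -0.0068 for all compared genes. Ifit3, Ifna15 and Ifnl2 were at least 1.5-fold higher (0.315% of compared genes), no member was at least 1.5-fold lower (1.37%), and none reached 2-fold on the deposited scale. Since earlier results on the same arrays guided the choice of members, these counts describe the choice. Over all compared genes, 4 were at least 2-fold higher (0.0307%) and 11 at least 2-fold lower (0.0845%), so 26.7% of the 2-fold genes were higher. That share was 92.9% after quantile normalization and 91.7% after level adjustment.

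The difference between the arrays varied with signal level, and this bears on the brighter members. In the highest of 20 bins of mean level, which holds Ifit3, Ifnl2 and Apol9a, the median difference was -0.30 and 80.2% of 651 genes were lower on the array labelled Ssu72fl/fl. In the next bin, with Ifna15 and Ifitm3, the median was -0.14. Of the 1302 genes in both bins, 25.8% were higher, 1.46% at least 1.5-fold higher and 11.5% at least 1.5-fold lower. Level-adjusted differences, which remove the fitted trend of difference with level, were therefore larger for the members that were higher. They came to 1.28 for Ifit3, 1.15 for Ifnl2, 0.90 for Ifna15 and 0.80 for Apol9a. With this adjustment 6 members were again higher and 2 lower, where 54% of compared genes were higher and 46% lower. Ifit3, Ifnl2, Ifna15 and Apol9a were then at least 1.5-fold higher, as were 0.745% of compared genes, and no member was that much lower (0.3%). Ifit3 and Ifnl2 were at least 2-fold higher, as were 0.0845% of compared genes, and none was 2-fold lower (0.00768%). Ifitm3 stayed lower, at -0.33, and Oas3 was hardly altered, at 0.32. Irf7 came to 0.014 and Ifit1 to -0.029.

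**Figure D2:**
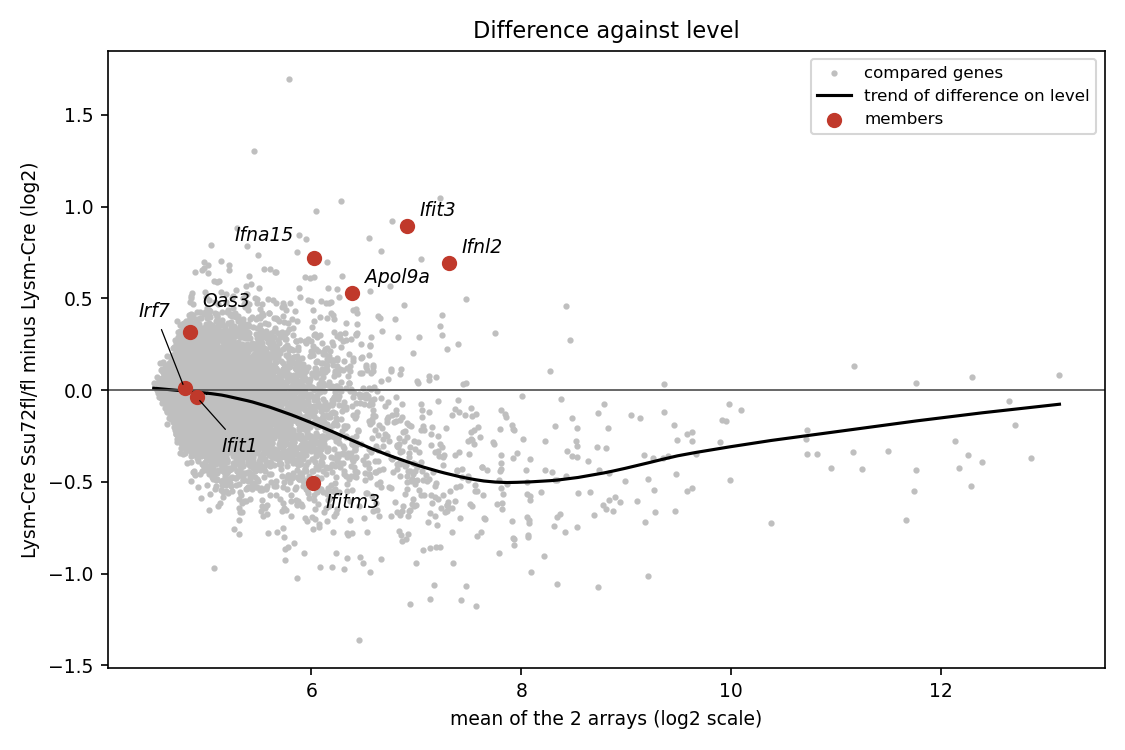
Difference between the arrays (Lysm-Cre Ssu72fl/fl minus Lysm-Cre, log2, y axis) against the mean of both (log2 scale, x axis) for the 13015 compared genes in grey and the 8 compared members in red, with the trend of difference on level as a black line. Ifit3, Ifnl2, Ifna15 and Apol9a lie above a trend that runs below 0 at their levels, and Ifitm3 lies under it.

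Ifit3 stands in a cluster of related genes on chromosome 19, and most of its relatives could not be compared. Of 6 IFIT genes read, 4 were below the floor on both arrays. Ifit3b, the neighbouring copy of Ifit3, read 4.64 on the array labelled Ssu72fl/fl and 4.46 on the control array, so whether it differed cannot be read. Ifit1bl1 read 4.34 on the array labelled Ssu72fl/fl and 4.35 on the control array, and Ifit1bl2 read 4.45 and 4.46 in the same order. With Ifit2 these are the 4 genes that were not compared, which leaves Ifit3 higher and Ifit1 lower. A floor at the 25th percentile let 4 be compared, 3 higher and 1 lower. Ifit3 and Ifit3b are close copies, and the probe sequences were not used here, so how far their features tell the copies apart is not known.

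The promoters of the members are shown because interferon-induced genes are switched on through a shared element. The pattern GAAA, any 2 bases and GAAA again, the core of an interferon-stimulated response element, was searched on both strands (TTTC, any 2 bases and TTTC on the other), overlaps included, in RefSeq windows of 250 bases before to 50 after each annotated start, in assembly GRCm38.p6. All 9 members matched a window by symbol, and 6 of them held the letters, as did 3.99% of 27025 genes with a window. The 3 without them were Ifit2, Ifnl2 and Irf7, which says only that these letters are not in those windows. The Ifnl2 window holds what reads as coding sequence ahead of the annotated start and may miss its promoter. In the stretches, written 5′ to 3′ on the gene's strand, capitals mark the matches. The Ifit3 stretch is chr19:34583348-34583441 (plus strand), the Ifit3b stretch chr19:34607744-34607837 (plus) and the Ifit1 stretch chr19:34640760-34640838 (plus). The others are Apol9a at chr15:77411099-77411164 (minus), Oas3 at chr5:120777700-120777759 (minus), Ifitm3 at chr7:141010695-141010767 (minus) and Ifna15 at chr4:88558335-88558435 (minus).
Ifit3: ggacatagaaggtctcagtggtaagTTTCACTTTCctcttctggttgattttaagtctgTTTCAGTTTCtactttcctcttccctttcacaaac
Ifit3b: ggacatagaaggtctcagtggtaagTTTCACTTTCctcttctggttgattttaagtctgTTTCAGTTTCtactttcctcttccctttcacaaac
Ifit1: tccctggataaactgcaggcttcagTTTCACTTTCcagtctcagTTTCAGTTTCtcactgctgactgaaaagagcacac
Apol9a: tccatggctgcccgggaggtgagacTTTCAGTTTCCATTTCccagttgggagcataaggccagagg
Oas3: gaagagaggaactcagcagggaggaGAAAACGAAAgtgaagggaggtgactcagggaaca
Ifitm3: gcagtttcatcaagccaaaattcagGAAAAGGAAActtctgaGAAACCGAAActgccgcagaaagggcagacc
Ifna15: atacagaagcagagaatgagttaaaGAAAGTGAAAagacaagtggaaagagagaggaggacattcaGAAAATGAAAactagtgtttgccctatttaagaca

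The Ifit3 matches begin 156 and 122 bases before the annotated start, and those of Ifit1 begin 104 and 85 bases before it. The Ifit3 and Ifit3b stretches of 94 bases are the same letter for letter, and over the aligned part of their windows 258 of 274 positions were identical (94.2%). Ifit3 differed by 0.89, while Ifit3b was below the floor on both arrays. The Ifit1 stretch also lies in a window of Ifit1bl2, which is transcribed in the opposite direction. In Apol9a the 2 matches overlap. The Apol9a and Apol9b windows were identical over all 281 aligned positions, and Apol9b read 4.69 on the array labelled Ssu72fl/fl and 4.52, below the floor, on the control array. In Ifitm3 both matches lie just after the annotated start. The letters were in the windows of members higher on the array labelled Ssu72fl/fl (Ifit3, Apol9a, Oas3, Ifna15) and of members that were not (Ifit1, Ifitm3). They were absent from the windows of Ifnl2, which was higher, Irf7, which lay within the spread, and Ifit2, which was not compared.

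Among interferon genes, 4 alpha genes and 1 lambda gene were higher and the rest were lower or not measurable. Of 21 listed, 19 were read and 8 compared: 5 were higher and 3 lower, with a median of 0.25. Of all compared genes 48.1% were higher, with a median of -0.0068, and 5 of 8 is not far from that share. The 5 include the chosen members Ifna15 and Ifnl2. Ifna15 was followed by Ifna1, at 6.38 on the array labelled Ssu72fl/fl and 5.90 on the control array (0.48), and Ifna14, at 5.29 and 4.87 in the same order (0.42). Ifna7 read 4.91 on the array labelled Ssu72fl/fl and 4.82 on the control array (0.091). Ifna4 was lower, at 4.98 on the array labelled Ssu72fl/fl and 5.24 on the control array (-0.27). Ifna6 was below the floor on the array labelled Ssu72fl/fl, at 4.52, and read 4.71 on the control array. The other 11 genes read were below the floor on both arrays. They included Ifnb1, the beta gene that is induced early in many responses, at 4.43 on both arrays, and Ifng, the type II interferon gene, at 4.55 on the array labelled Ssu72fl/fl and 4.53 on the control array.

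Ifnl3, the close copy of Ifnl2, did not show the difference of Ifnl2. It read 6.79 on the array labelled Ssu72fl/fl and 6.83 on the control array (-0.037), while Ifnl2 differed by 0.69. The direction of Ifnl3 depended on scaling: it was 0.35 after quantile normalization and 0.33 after level adjustment. Their windows around the annotated start were identical at 297 of 300 positions (99%). Both windows hold what reads as coding sequence ahead of that start, so this identity need not be that of their promoters. Without the members Ifna15 and Ifnl2, 3 interferon genes were higher and 3 lower, with a median of 0.027, where 48.1% of all compared genes were higher. None of these 6 was 1.5-fold different on the deposited scale, where 0.315% of compared genes were that much higher and 1.37% that much lower. Level-adjusted, only Ifna1 was (0.69), where 0.745% of compared genes were that much higher and 0.3% that much lower. The alpha genes are close copies of each other as well, so signal assigned to 1 alpha gene can come from another.

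**Figure D3:**
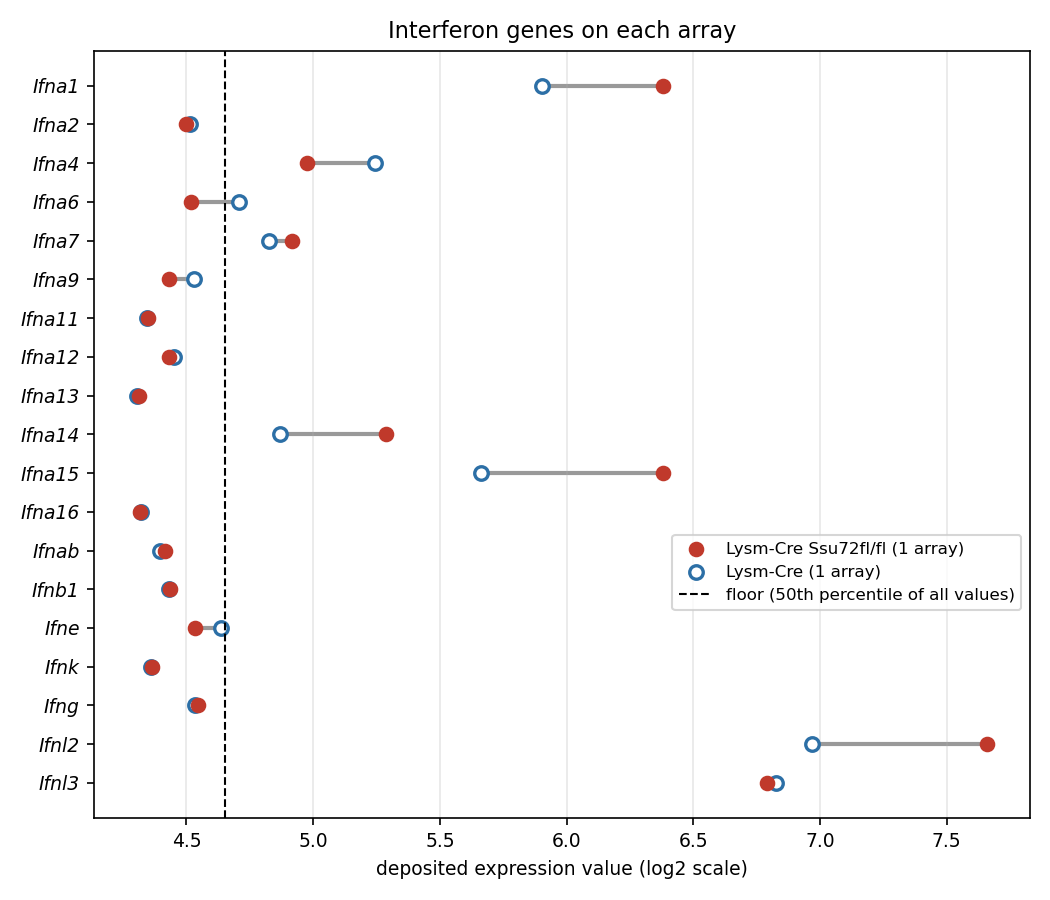
Deposited expression values (log2 scale, x axis) of the 19 interferon genes read (y axis), with a filled point for the array labelled Lysm-Cre Ssu72fl/fl, an open point for the Lysm-Cre control array and a dashed line at the floor of 4.65. Ifna1, Ifna14, Ifna15 and Ifnl2 lie to the right on the array labelled Ssu72fl/fl, Ifna4 to the left, and 11 genes, Ifnb1 among them, are below the floor on both arrays.

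Receptors and signalling genes of the interferon pathway were mostly lower on the array labelled Ssu72fl/fl. Of 24 listed, 23 were compared, 18 lower and 5 higher, with a median of -0.13 (-0.091 level-adjusted), where 51.9% of all compared genes were lower. The 5 receptor chains above the floor on both arrays lay within the spread at their level. Ifnar1 read 4.90 on the array labelled Ssu72fl/fl and 5.02 on the control array (-0.12), and Ifnar2 read 5.66 and 5.77 in the same order (-0.11, but 0.0030 level-adjusted). Ifngr1, a chain of the interferon gamma receptor, differed by -0.19 and Ifngr2 by 0.063. Ifngr1 came to 0.0032 after quantile normalization. Il10rb, which the lambda receptor shares with other cytokine receptors, differed by -0.22. Ifnlr1, the chain particular to lambda interferons, was below the floor on the control array (4.66 on the array labelled Ssu72fl/fl, 4.42 on the control array). Its bound was 0.0035, and -0.0050 level-adjusted, so it was not placed against the spread.

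Jak1, a kinase bound to the type I, II and III receptors, was the lowest gene of this list, at 5.88 on the array labelled Ssu72fl/fl and 6.47 on the control array (-0.59). It was the only gene of the list at least 1.5-fold lower (1.37% of compared genes), and its level-adjusted difference was -0.37. The phosphatase genes Ptpn6 (-0.49) and Ptpn1 (-0.34) followed. At the other end were Ube2l6 (at least 0.23), which conjugates the ubiquitin-like Isg15, and the feedback inhibitors Socs1 (0.15) and Usp18 (0.11). Stat2 (-0.010) and Irf9 (-0.074), transcription factor genes of interferon signalling, differed by less than the spread at their level.

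Genes that detect nucleic acids and start interferon production were evenly divided. Of 35 listed, 29 were read and 24 compared, 12 higher and 12 lower, with a median of -0.0071, where 48.1% of all compared genes were higher and 51.9% lower. Ticam1, the adaptor of Tlr3, was highest, at 5.06 on the array labelled Ssu72fl/fl and 4.80 on the control array (0.26), followed by Rnf135 (at least 0.24) and the kinase gene Ikbke (0.18). Unc93b1, which carries endosomal Toll-like receptors, was lowest, at 5.66 on the array labelled Ssu72fl/fl and 6.11 on the control array (-0.45), followed by the endosomal receptor gene Tlr8 (-0.31) and Tank (a bound of -0.29). Irf3, the factor that starts interferon beta transcription, was below the floor on both arrays. None of the 24 genes was 1.5-fold different, with bounds taken at their value. Of all compared genes, 0.315% were that much higher and 1.37% that much lower, and a count of 0 among 24 is near those shares.

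No other compared interferon-induced gene differed by as much as Ifit3. The list of 84 type I interferon-induced genes, in which 6 compared members are included, gave 74 genes read and 53 compared. Of these, 21 were higher (39.6%) and 32 lower on the array labelled Ssu72fl/fl, with a median of -0.040, beside 48.1% higher and -0.0068 for all compared genes. Without the members, 17 were higher and 30 lower among 47, with a median of -0.053, and 31 of the 47 lay within the spread at their level. On the deposited scale Ifit3 was the only gene of the list at least 1.5-fold higher, and level-adjusted it was joined by Apol9a. None of the 47 reached 1.5-fold in either direction on either scale, with the 9 bounds among them taken at their value. Of all compared genes, 0.315% were that much higher and 1.37% that much lower on the deposited scale, and 0.745% and 0.3% in the same order level-adjusted. A count of 0 among 47 is near those shares. The 67 genes read without the members had median values close to the floor of 4.65. These were 4.72 on the array labelled Ssu72fl/fl and 4.77 on the control array, while Ifit3 lay in the highest level bin. The count therefore sets Ifit3 beside genes of mostly much lower signal. Of the 38 without the members above the floor on both arrays, 13 were higher and 25 lower.

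The highest genes after Ifit3, Apol9a and Oas3 were Cmpk2, a nucleotide kinase gene, at 4.89 on the array labelled Ssu72fl/fl and 4.72 on the control array (0.17), and the RNA editing enzyme gene Adar, at 5.61 and 5.45 in the same order (0.17). The lowest after Ifitm3 were Ly6e, at 6.60 on the array labelled Ssu72fl/fl and 7.03 on the control array (-0.43), and the ubiquitin ligase gene Trim25, at 5.58 and 5.86 in the same order (-0.28). Ly6e, which encodes a surface protein that affects virus entry, came to -0.060 when level-adjusted. Several genes that type I interferon strongly induces were close to or below the floor. Isg15, the ubiquitin-like modifier gene, read 4.44 on the array labelled Ssu72fl/fl and 4.69 on the control array. Rsad2, the viperin gene, read 4.64 on the array labelled Ssu72fl/fl and 4.69 on the control array. Mx1, a GTPase gene known for blocking influenza virus in mice with an intact copy, read 4.41 on the array labelled Ssu72fl/fl and 4.40 on the control array. The chemokine gene Cxcl10 read 4.78 on the array labelled Ssu72fl/fl and 4.88 on the control array (-0.10, spread 0.12).

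**Figure D4:**
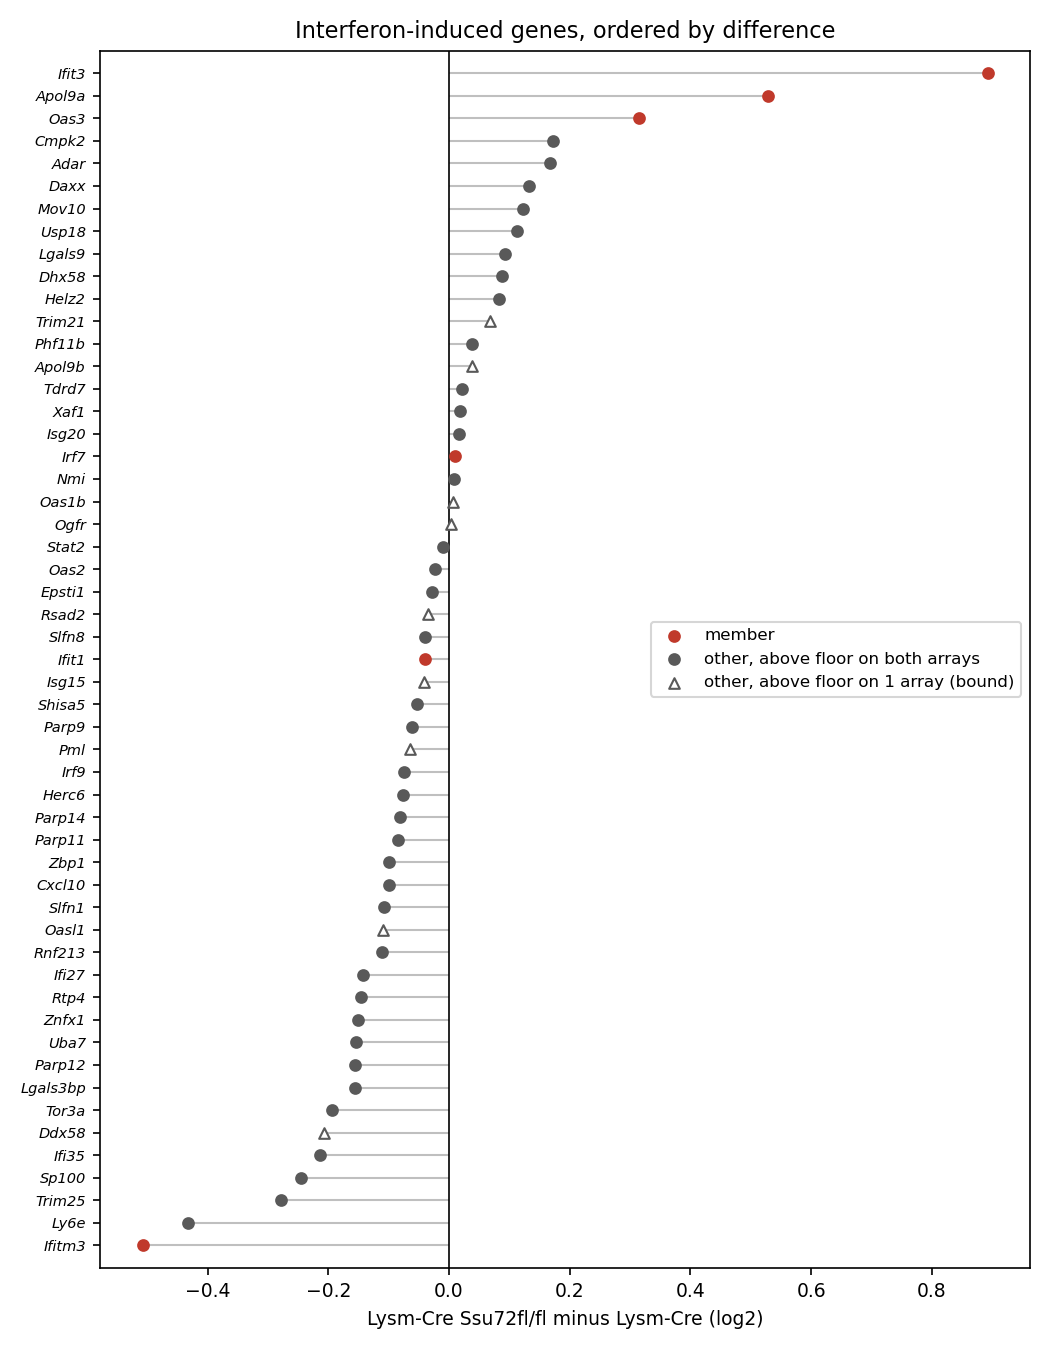
Difference between the arrays (Lysm-Cre Ssu72fl/fl minus Lysm-Cre, log2, x axis) for the 53 compared interferon-induced genes, ordered by difference (y axis), with members in red, other genes in dark grey and open triangles for genes above the floor on 1 array, whose difference is a bound. Ifit3 (0.89), Apol9a (0.53) and Oas3 (0.32) stand at the top, the next gene is at 0.17, and 32 genes are below 0.

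Interferon-induced genes with and without the response element letters overlapped in their differences. Of 84 listed, 64 matched a promoter window, and 31 of these held the pattern on either strand (48.4%, against 3.99% of all genes with a window). Of the 47 compared genes without the members, 14 held the letters, 6 higher and 8 lower, with a median of -0.022. The 22 compared genes whose windows lacked them were 8 higher and 14 lower, with a median of -0.075. The rest of the 47 matched no window and are not in this split. Of all compared genes 48.1% were higher, with a median of -0.0068, and 6 of 14 is near that share. The genes with the letters ran from -0.21 to 0.093 and those without from -0.28 to 0.17.

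The relatives of Oas3 and Ifitm3 in the OAS and IFITM families were mostly below the floor or within the spread. Of 11 OAS genes read, Oas1c, Oas1d, Oas1e, Oas1f, Oas1g, Oas1h and Oasl2 were below the floor on both arrays. Oas2 read 4.79 on the array labelled Ssu72fl/fl and 4.81 on the control array (-0.022), and Oasl1 was below the floor on the array labelled Ssu72fl/fl (4.59, against 4.76 on the control array). Oas1b was just above the floor on the array labelled Ssu72fl/fl, at 4.66. Oas3 was thus the only OAS gene compared whose difference passed the spread while both arrays were above the floor. Of 6 IFITM genes read, Ifitm1 and Ifitm2 were below the floor on both arrays. Ifitm3 was lower, Ifitm10 (0.045) and Ifitm5 (0.099) were higher by less than the spread at their level, and Ifitm6 was at least 0.17 higher.

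Genes that lean towards interferon gamma were likewise divided. Of 37 listed, 32 were read and 22 compared, 11 higher and 11 lower, with a median of -0.0019, where 48.1% of all compared genes were higher. Gbp10, a guanylate-binding protein gene, was lowest, at 4.88 on the array labelled Ssu72fl/fl and 5.64 on the control array (-0.76, spread 0.19). It was the only gene of the list at least 1.5-fold lower, as were 1.37% of compared genes. Tapbp (-0.30), of peptide loading, and the transcription factor gene Irf1 (-0.25) followed. Psme2, a proteasome activator subunit gene, was highest, at 6.15 on the array labelled Ssu72fl/fl and 5.64 on the control array (0.51, and past 1.5-fold at 0.66 level-adjusted), followed by the peptide transporter gene Tap1 (0.22) and Batf2 (at least 0.19).

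The 5 genes whose pair of values lay closest to that of Ifit3, by Euclidean distance over the 2 arrays, were not interferon genes of the lists. They were the microRNA genes Mir339 (distance 0.21) and Mir1963 (0.31), Rab3c (0.22), Wrnip1 (0.33) and Ptms (0.37). Rab3c, a small GTPase gene of vesicle traffic, read 7.40 on the array labelled Ssu72fl/fl and 6.69 on the control array. With 2 arrays, such likeness means only similar values on both.

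Markers of cells that could contribute interferon transcripts were also read, and their part in these differences was not tested. Their summed log2 values add different probes, those below the floor included, and do not measure how many cells of a type were present. Of all compared genes, 48.1% were higher and 51.9% lower. Of 11 plasmacytoid dendritic cell markers, 7 were compared, 2 higher and 5 lower, and 6 of these 7 lay within the spread at their level. Ly6d did not, at 4.77 on the array labelled Ssu72fl/fl and 5.01 on the control array (-0.24, spread 0.13). The sum over the 11 was 52.5 on the array labelled Ssu72fl/fl and 52.8 on the control array. Siglech read 4.90 on the array labelled Ssu72fl/fl and 4.91 on the control array, while Bst2, Ccr9, Spib and Klk1 were below the floor on both. Of 6 T cell markers read, 4 were compared, 3 higher and 1 lower, with a sum of 29.3 on the array labelled Ssu72fl/fl and 28.3 on the control array. Most of that gap was Lat, at 5.56 on the array labelled Ssu72fl/fl and 4.87 on the control array (0.68). Cd3d read 4.89 and 4.63 in the same order, the control value below the floor, so it was at least 0.24 higher (spread 0.11). Cd4, also below the floor on the control array, was at least 0.055 higher, and Cd8a differed by -0.014. Cd3e and Cd3g were below the floor on both arrays.

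Other marker lists, apart from B cells, were mostly lower on the array labelled Ssu72fl/fl. Of all compared genes 51.9% were lower, and 68.2% and 80.2% in the bins of highest level. Of the B cell markers compared, 2 were higher and 1 lower (median 0.058). Lower were 3 of 4 NK cell markers compared, all 3 of conventional dendritic cells and 3 of 4 of ciliated and club cells. Of the 4 NK cell markers, 3 lay within the spread at their level and 2 were bounds. All 3 of conventional dendritic cells lay within it. Level-adjusted, Cd209a of conventional dendritic cells turned to 0.13 and Scgb1a1 of club cells to 0.47. Among 7 monocyte markers 6 were lower (median -0.33, and -0.27 level-adjusted), with sums of 36.9 on the array labelled Ssu72fl/fl and 39.2 on the control array. Cx3cr1 (-0.63, and -0.41 level-adjusted) and Nr4a1 (-0.48, and -0.083 level-adjusted) were the lowest of them. All 5 neutrophil markers compared were lower (median -0.056), but each lay within the spread at its level. All 5 endothelial markers were lower too (median -0.11), 2 of them within the spread and 1 as a bound. Of 8 alveolar type 2 markers, 6 were lower (median -0.13), with sums of 45.0 on the array labelled Ssu72fl/fl and 46.1 on the control array. Sftpc read 8.35 on the array labelled Ssu72fl/fl and 8.71 on the control array (-0.36), and turned to 0.039 quantile-normalized and 0.11 level-adjusted.

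The member differences were similar in direction under the settings tried. Over 8 settings, Ifit3 lay between 0.88 and 1.28, Ifnl2 between 0.68 and 1.15, Ifna15 between 0.71 and 0.91, Apol9a between 0.52 and 0.83, and Ifitm3 between -0.52 and -0.33. These genes have 1 feature each and lay above every floor tried. Only median centring, quantile normalization and level adjustment could therefore change their values, and the other settings were no check on them. Oas3 was 0.031 with the floor at the 75th percentile, where its control value is only a bound. Irf7 turned to -0.0021 with each array centred on its own median.

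**Figure D5:**
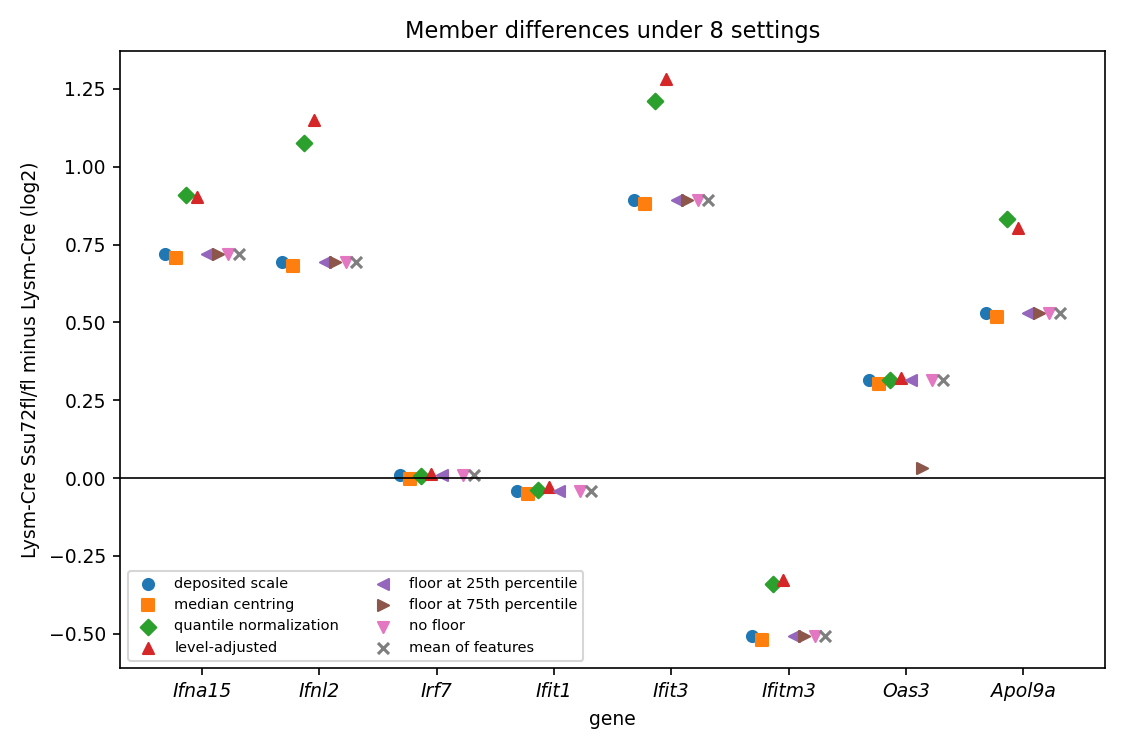
Difference between the arrays (Lysm-Cre Ssu72fl/fl minus Lysm-Cre, log2, y axis) of the 8 compared members (x axis) under 8 settings, each with its own marker. For Ifit3, Ifnl2, Ifna15, Apol9a and Ifitm3 only median centring, quantile normalization and level adjustment could change the value. Ifit3, Ifnl2, Ifna15 and Apol9a are above 0 in all settings shown, with higher values after quantile normalization and level adjustment, Ifitm3 is below 0 in all, and Irf7 and Ifit1 stay near 0.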

How the data were processed

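The deposited file gives 1 value per feature and array, taken as log2 expression values from their range (4.23 to 13.5). Total RNA from sorted cells was labelled from 6 ug per array, per the labels' protocols. The submitters' processing notes name MAS5 without a role; how background and normalization were handled is not stated in what was used here. Medians were 4.66 (Lysm-Cre Ssu72fl/fl) and 4.65 (Lysm-Cre). The annotation gave 23521 of 33793 features a single gene symbol, 1814 several and 8458 none. Of the single-symbol features, 23328 matched RefSeq assembly GRCm38.p6 through the Entrez identifier and took its symbol. A gene took its feature with the highest mean. The floor replaced any lower value. Genes above it on either array were compared, 13015 in all, 2081 of them as bounds. Level adjustment subtracted a lowess curve (span 0.3) fitted on medians of level bins 0.1 wide with at least 10 features. Python 3.11.15, pandas 2.3.3, statsmodels 0.14.6 and Biopython 1.88 were used. The procedure was also run on simulated arrays, with planted changes larger than any member difference and only in genes well above the floor. That run does not cover smaller changes or genes near the floor. The number of arrays limits the precision.

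Members and gene lists were chosen with earlier results of these data known. Named were the members, Ssu72, all IFIT, IFITM, OAS and receptor genes read, the 3 highest and 3 lowest of each interferon list, and the 5 genes closest to Ifit3. The same rule covered the cell type marker lists, of which only some ends are printed. Outside this rule, Isg15, Rsad2, Mx1, Cxcl10, Ifnb1, Ifng, Irf3, Stat2, Apol9b, Ifna7, Ifna14, Irf9, Cmpk2, Adar, Bst2, Ccr9, Spib, Klk1, Cd3e and Cd3g were named after their values were seen.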

Additional observations from a re-analysis of the deposited data

How the results depend on the processing

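Each array was also centred on its median or quantile-normalized, differences were level-adjusted, the floor was set at the 25th or 75th percentile or removed, a gene's features were averaged, and other folds were used. No paired analysis was possible because each genotype had 1 array, which also left no replicate to leave out. The lists without the members were added after seeing the data. The member median was 0.57 quantile-normalized, 0.56 level-adjusted and 0.61 with the 75th percentile floor, where 1 member was lower. The IFIT median was 0.59 quantile-normalized and 0.63 level-adjusted. The floor at the 25th percentile gave an IFIT median of 0.10 with 3 higher, the 75th gave 0.89 with 0 lower, and no floor gave 0.014 with 3 higher and 3 lower. The interferon gene median was 0.39 quantile-normalized, 3.4e-05 at the 25th percentile (6 lower), 0.40 at the 75th, and 0.0048 with no floor (11 higher, 8 lower). Without the members it was 0.22 quantile-normalized, 0.22 level-adjusted and -0.026 at the 25th percentile (6 lower), a reversal, and no floor gave 9 higher and 8 lower. With the 75th percentile floor, 9 interferon-induced genes were higher and 14 lower (6 and 13 without the members), and no floor gave 33 higher (28 without the members). Sensor genes were 6 higher and 7 lower at the 75th percentile, and their median reversed to 0.0015 quantile-normalized and 0.0099 level-adjusted. Gamma-leaning genes were 7 higher at the 75th percentile and 17 lower with no floor, and their median reversed to 0.0047 level-adjusted. Signalling genes were 3 higher at the 75th percentile. Over all genes, those 2-fold higher numbered 13 quantile-normalized and 11 level-adjusted, and those 2-fold lower 1 in each. At 1.5-fold they were 41 higher and 178 lower, and at 3-fold 1 higher and 0 lower. Irf7 reversed to -0.0021 with median centring. Floors and folds change which genes enter a count, and the cause of the other shifts was not tested. Signal close to the floor limits Irf7, Ifit1, Ifit2 and Oas3.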

Other observations

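Interferon zeta and its predicted relatives were read only by features that name several genes, which the report does not use. Of 9 such features that include Ifnz, 4 were higher and 5 lower on the array labelled Ssu72fl/fl, from -0.25 to 0.27 with a median of -0.043. Their values ran from 4.64 to 5.58 on the array labelled Ssu72fl/fl and from 4.79 to 5.62 on the control array. The SD between these features, which share target genes, was 0.19. A feature shared by Ifna5 and Ifna6 read 4.73 on the array labelled Ssu72fl/fl and 4.79 on the control array, and 1 shared by Oas1a and Oas1g read 4.59 and 4.60 in the same order.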
